A study of Mus musculus with 168 samples.

Results

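The genes described are Gdf15, Lif, Chl1, Pak4, Aldh4a1 and Cplx2, which are 6 of the 39410 rows of the deposited expression table. The study named them as raised in ocular motor neurons of mice with spinal muscular atrophy (SMA), and all 6 were found by symbol. The comparison asked whether they were higher in ocular neurons alone or in other populations as well. The members were chosen by their RPKM in ocular SMA and control neurons, so each ocular comparison of SMA with control is a description with no test.

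SMA is a disease of motor neurons caused by too little of the survival motor neuron protein. Neurons were cut by laser from tissue of delta7 mice, with the genotype Smn-/-/SMN2+/+/SMN∆7+/+, and of littermate controls with the genotype Smn+/+/SMN2+/+/SMN∆7+/+. Controls therefore also carried the human SMN2 and SMN∆7 transgenes. Mice were 2, 5 or 10 days old, ages described as before symptoms, early and late in disease. The populations were ocular motor neurons (oculomotor and trochlear nuclei), facial, vagus, hypoglossal and lumbar spinal motor neurons, and neurons of the red nucleus, a midbrain relay whose axons do not reach muscle. Some ocular libraries came from the oculomotor or the trochlear nucleus alone. The 168 libraries gave 160 samples of 1 mouse and population. They came from 19 SMA and 15 control mice, with 3 to 7 mice in each of the 36 groups of population, genotype and age, and the mouse was the replicate.

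Ocular motor neurons are known to be spared in SMA, while lumbar motor neurons are lost. Gdf15 encodes a secreted stress-response cytokine that acts through the receptor GFRAL with the co-receptor RET. Lif encodes leukemia inhibitory factor, a secreted cytokine of the IL-6 family that supports motor neuron survival in culture and signals through LIFR and gp130 (Il6st) to JAK kinases and STAT3. Chl1 encodes an adhesion molecule of the L1 family with parts in axon guidance. Pak4 encodes a serine/threonine kinase that binds CDC42 and acts on the actin cytoskeleton. Aldh4a1 encodes the mitochondrial dehydrogenase that completes the breakdown of proline to glutamate. Cplx2 encodes complexin 2, which binds the SNARE complex and regulates synaptic vesicle fusion.

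The start regions of Gdf15 and Lif are shown because these 2 genes were near 0 in controls and reached several RPKM in day-10 ocular SMA neurons. The Gdf15 run is 8:70632457-70632706 on the minus strand and the Lif run is 11:4257318-4257556 on the plus strand, both from RefSeq (GRCm38.p6), written 5′ to 3′ and ending just before the gene. Capitals mark a match to AP-1.
Gdf15: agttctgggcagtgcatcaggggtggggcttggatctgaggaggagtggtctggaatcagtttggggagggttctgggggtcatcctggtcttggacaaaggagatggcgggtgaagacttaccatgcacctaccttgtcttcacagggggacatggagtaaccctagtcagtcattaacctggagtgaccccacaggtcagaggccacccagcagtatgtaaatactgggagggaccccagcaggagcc
Lif: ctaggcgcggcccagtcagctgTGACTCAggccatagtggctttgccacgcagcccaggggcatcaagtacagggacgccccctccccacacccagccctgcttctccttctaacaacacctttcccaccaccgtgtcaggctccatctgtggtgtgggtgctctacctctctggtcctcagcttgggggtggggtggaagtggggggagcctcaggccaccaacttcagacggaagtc
The Lif match lies in the upstream end of the run. AP-1 was searched as TGANTCA on both strands and was found in 6.75% of the 32851 windows of 250 bases before RefSeq gene starts. The Gdf15 run held none of the 6 motifs searched, which were AP-1, CRE (TGACGTCA), the E-box (CACGTG), an ATF composite site (TGATGNAA), STAT (TTCNNNGAA) and the p53 half-site. A second Gdf15 start in RefSeq had an E-box 83 bases upstream, a motif found in 6.02% of windows. These matches are letters in a window, and no measurement of binding was made.

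Values are RPKM, in which the reads of a gene are divided by its length and by the depth of the library. Depth was not listed and was estimated from equal steps in low RPKM. The estimates were 0.342 to 16.3 M reads per library, with a median of 5.89 M, where M counts reads as Mb counts bases. Smn1 was 4.32 to 63.3 RPKM in the 72 control samples and 0 to 4.24 RPKM in the 88 SMA samples, which do not overlap. Chat, the enzyme that makes acetylcholine, averaged 20.2 to 34.0 RPKM in controls of the 5 motor populations and 0.176 RPKM in the red nucleus, where the marker Pou4f1 averaged 227.8 RPKM. The ocular sample of SMA mouse 250 at day 10 stood apart. It had 57.4 RPKM of Pou4f1, against at most 16.4 in the other 27 ocular samples, and 119.4 RPKM of Slc17a6, a glutamate transporter that was the other red nucleus marker. It also had the lowest day-10 ocular values of the motor neuron genes Isl1 (21.1 RPKM) and Slc5a7 (72.2 RPKM). The day-10 ocular difference of each member is therefore given with and without it. Other day-10 ocular values include it unless stated.

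At day 10, all ocular SMA mice were above all ocular controls for 5 of the 6 genes, and for Lif 4 of 5 SMA mice were above controls that were all at 0. Among the 15890 genes tested there, 2.32% had such a separation upwards, and nothing is read from the members' count because this contrast chose them. At days 2 and 5 the ocular SMA and control values overlapped for all 6 genes. Outside the ocular nuclei, 0 of 69 comparisons fitted with limma passed the Benjamini-Hochberg adjusted threshold of 0.05, which 0.121% of all gene results there passed. The 69 hold no Lif result and no hypoglossal or red nucleus Gdf15 result, since these failed the expression filter. They had 15 exact permutation tests, of which 0 had p under 0.05, and 6 further comparisons with 0 in every mouse. At an unadjusted limma p under 0.05, 5 of the 69 were below it (7.25%), against 6.92% of all gene results. These 5 were all positive. Of them 4 were among the 23 fitted results at day 10, in facial, hypoglossal and lumbar neurons, where 7.04% of all gene results were under 0.05. Of the 30 non-ocular comparisons at day 10, 21 differences were positive and 1 was exactly 0. At day 2 these counts were 15 and 3 of 30, and at day 5 they were 19 and 2. The median difference over all genes was also positive in each non-ocular population at day 10, from 0.01 in facial to 0.13 in red nucleus neurons. The share of all genes with a positive difference was not computed, so nothing is read from these counts.

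**Figure D1:**
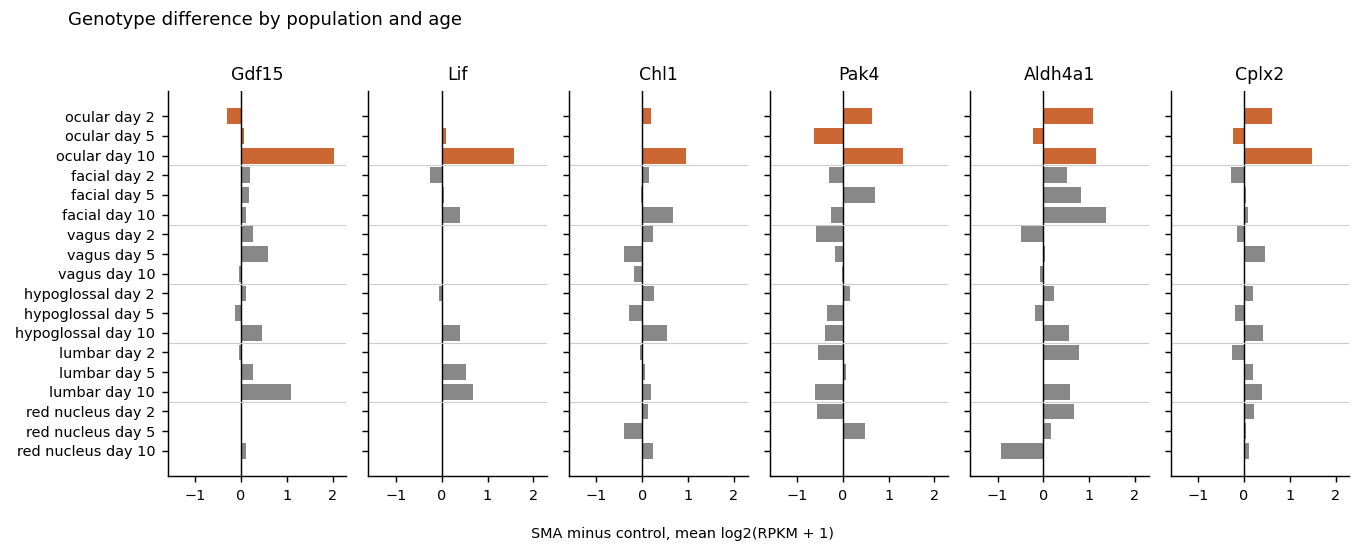
Difference between SMA and control in mean log2(RPKM + 1) drawn as a bar for each population at days 2, 5 and 10, with 1 panel for each of the 6 genes and ocular bars in orange. The day-10 ocular bars are positive in all 6 panels, from 0.95 for Chl1 to 2.03 for Gdf15, and for Aldh4a1 the facial day-10 bar (1.36) is longer than the ocular one (1.14).

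Gdf15 in day-10 ocular neurons was 5.39, 2.85, 2.15, 3.30 and 4.13 RPKM in the 5 SMA mice and 0, 0.0588, 0 and 0.310 RPKM in the 4 controls. Every SMA mouse was above every control, with about 131 reads in all against about 6. The difference was 2.03 on the log2(RPKM + 1) scale, and 2.04 without mouse 250. At day 5 it was 2.92 and 1.43 RPKM in 2 of 5 ocular SMA mice and 0 in the other SMA mice, while a control reached 3.21 RPKM, so the earlier values do not separate the genotypes.

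Lumbar neurons were the other population with Gdf15 reads in every SMA mouse at day 10. The 5 SMA mice had 6.76, 0.814, 1.70, 3.80 and 1.03 RPKM and the 4 controls 0, 0, 1.54 and 1.203 RPKM, or about 58 reads against about 10. The groups overlapped, since 3 of 5 SMA mice were above the highest control. The limma difference was 1.09 (SE 0.437), with a Benjamini-Hochberg adjusted p of 0.350 over the 16382 lumbar genes. The highest lumbar and the highest ocular value came from the same animal, SMA mouse 196, whose facial, vagus and hypoglossal samples were listed at 0 and whose red nucleus sample had 1.497 RPKM, the highest of that population. In the other 3 motor populations Gdf15 at day 10 was sparse. Vagus SMA mice were all at 0, facial SMA mice reached 2.42 RPKM against 1.505 in controls, and hypoglossal SMA mice reached 1.83 RPKM against 0 in all 4 controls. The hypoglossal difference had an exact two-sided permutation p of 0.238, with an adjusted p of 0.649 over 15 exact tests.

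**Figure D2:**
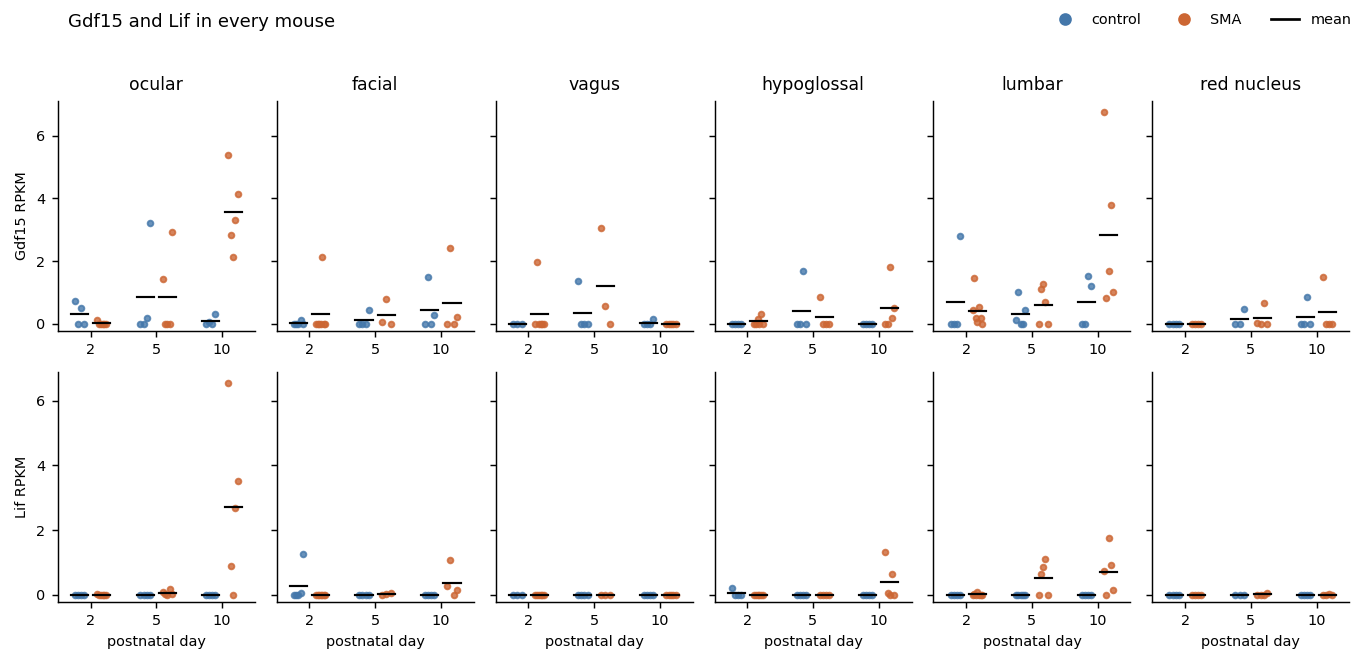
RPKM of Gdf15 and Lif in every mouse (points) by age for each population, with bars at group means, for control and SMA mice. Lif is at 0 in all day-5 and day-10 controls and reaches 6.56 RPKM in ocular, 1.74 in lumbar, 1.32 in hypoglossal and 1.09 in facial SMA neurons at day 10.

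Lif in day-10 ocular neurons was 6.56, 0.897, 0, 2.67 and 3.52 RPKM in the SMA mice and 0 in all 4 controls. SMA mouse 249 had no read, so the groups touch at 0. The SMA mean was at least 14.3-fold higher than the level that 3 reads would give in the control with the fewest reads (0.191 RPKM), and the log2 difference was 1.58, or 1.5 without mouse 250. At day 5, 4 of 5 ocular SMA mice already had some Lif, but the highest was 0.179 RPKM.

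Lif was also read outside the ocular nuclei in SMA mice. At day 10, 11 of 23 non-ocular SMA samples had Lif above 0 and 0 of 20 non-ocular control samples did. Samples of 1 mouse are not independent, so these counts carry no test. Lumbar SMA mice had 0.746, 0, 1.74, 0.913 and 0.156 RPKM, hypoglossal SMA mice 1.32, 0.0486, 0, 0.656 and 0, and facial SMA mice 0.273, 1.09, 0 and 0.143. Each of these populations had at least 1 SMA mouse at 0, as the controls were, so the groups met there. The SMA means were at least 2.55-fold higher than the control floor of 3 reads in lumbar, 1.55-fold in hypoglossal and 1.31-fold in facial neurons. Lif was at 0 in every vagus sample at all ages, and in the red nucleus at day 10 only 1 SMA mouse had any (0.0409 RPKM).

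Exact two-sided permutation tests of Lif outside ocular neurons could hardly pass at these group sizes. The smallest p that 5 against 4 mice allow is 0.0159, and 4 against 4 mice allow 0.0286, so no day-10 result could pass on its own after adjustment over 15 tests. The lowest p obtained was 0.0794, for lumbar neurons at day 10, with an adjusted p of 0.649, and 6 further comparisons of Gdf15 or Lif had 0 in every mouse. In lumbar neurons Lif was present at day 5 as well, at 0.639, 0.873 and 1.11 RPKM in 3 of 5 SMA mice and 0 in all 5 controls, whose libraries include reads of an earlier deposit. At day 2 the picture was different, since 2 of 30 non-ocular SMA samples and 3 of 20 controls had reads, and the highest value, 1.26 RPKM, was in a facial control. Depth limits these zeros. In the shallowest sample, the red nucleus of control mouse 252, 3 reads of Lif would be 2.33 RPKM, so values like those of the SMA mice were not detectable there.

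RNA of the receptors of both cytokines was read in the same control samples. Ret averaged 71.2 ± 16.4 RPKM (SD, n = 12) in ocular controls, below 121.1 ± 15.4 in lumbar (n = 13) and 104 ± 14.8 in facial (n = 13) controls. Gfral averaged at most 0.719 RPKM in any population and was listed at 0 in 10 of 12 ocular and all 11 red nucleus controls. Lifr averaged 7.69 ± 3.34 RPKM (n = 12) in ocular controls, against 48.6 ± 12.5 in hypoglossal (n = 12) and 36.5 ± 6.80 in facial (n = 13) controls. Il6st ran from 5.19 to 12.3 RPKM over the 6 populations. These levels were not tested against each other.

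Chl1 in day-10 ocular neurons was 13.5, 11.3, 7.42, 22.7 and 9.24 RPKM in SMA mice and 6.38, 6.20, 4.78 and 5.58 RPKM in controls. All SMA mice were above all controls, at 12.8 ± 5.98 (SD, n = 5) against 5.73 ± 0.723 (n = 4), a ratio of means of 2.24. Without mouse 250, which had the highest value, the ratio was 1.81. Ocular control means were 15.05 RPKM at day 2, 12.47 at day 5 and 5.73 at day 10, while SMA means were 18.2, 13.05 and 12.8. The day-10 ocular SMA values thus lay within the range of the younger ocular controls, 8.24 to 17.7 RPKM, except for mouse 249 below it and mouse 250 above it.

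Facial neurons had the same order of values for Chl1 at day 10. Facial SMA mice had 34.4, 19.4, 17.4 and 14.2 RPKM and controls 14.5, 10.6, 12.7 and 11.99 RPKM, so 3 of 4 SMA mice were above the highest control. The facial limma difference was 0.67 (SE 0.245, adjusted p = 0.369 by Benjamini-Hochberg over 17270 genes). In hypoglossal neurons SMA mice had 20.9 to 28.6 RPKM against 10.7 to 24.7 in controls, a limma difference of 0.53 (SE 0.212, Benjamini-Hochberg adjusted p = 0.661). The red nucleus markers Pou4f1 and Slc17a6 summed to 17.7 to 27.0 RPKM in day-10 hypoglossal SMA samples and 3.46 to 13.1 in controls. These sums did not overlap, but only 1 of the 2 marker means was higher in SMA. The motor neuron sum was 0.845 times that of controls, with overlap, and 1 of 4 marker means was higher. The part of these markers in the hypoglossal values of Chl1, Aldh4a1 and Cplx2 was not tested. The vagus difference was -0.18 (SE 0.181), with 48.1 to 78.6 RPKM in SMA mice and 60.7 to 85.5 in controls.

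Chl1 also fell with age in controls. From day 2 to day 10 the control mean went from 16.2 to 4.49 RPKM in lumbar neurons (limma log2 difference -1.74, SE 0.304, Benjamini-Hochberg adjusted p = 0.000162). In the red nucleus it went from 75.6 to 35.2 RPKM (limma -1.05, SE 0.224, Benjamini-Hochberg adjusted p = 0.00326), and that p was 0.0571 when only the compared groups were fitted. In facial neurons it went from 23.0 to 12.4 RPKM (limma -0.81, SE 0.233, Benjamini-Hochberg adjusted p = 0.0384), and leaving out any 1 of 7 control mice put that last p above 0.05. Vagus controls were at 71.0 RPKM at day 2 and 71.8 at day 10 (limma difference 0.01). Cplx2 fell in lumbar controls, from 41.9 to 12.8 RPKM (limma -1.66, SE 0.216, Benjamini-Hochberg adjusted p = 2.36e-06). These 4 were the age differences past the threshold among 23 member results, where 6.87% of all gene results passed.

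**Figure D3:**
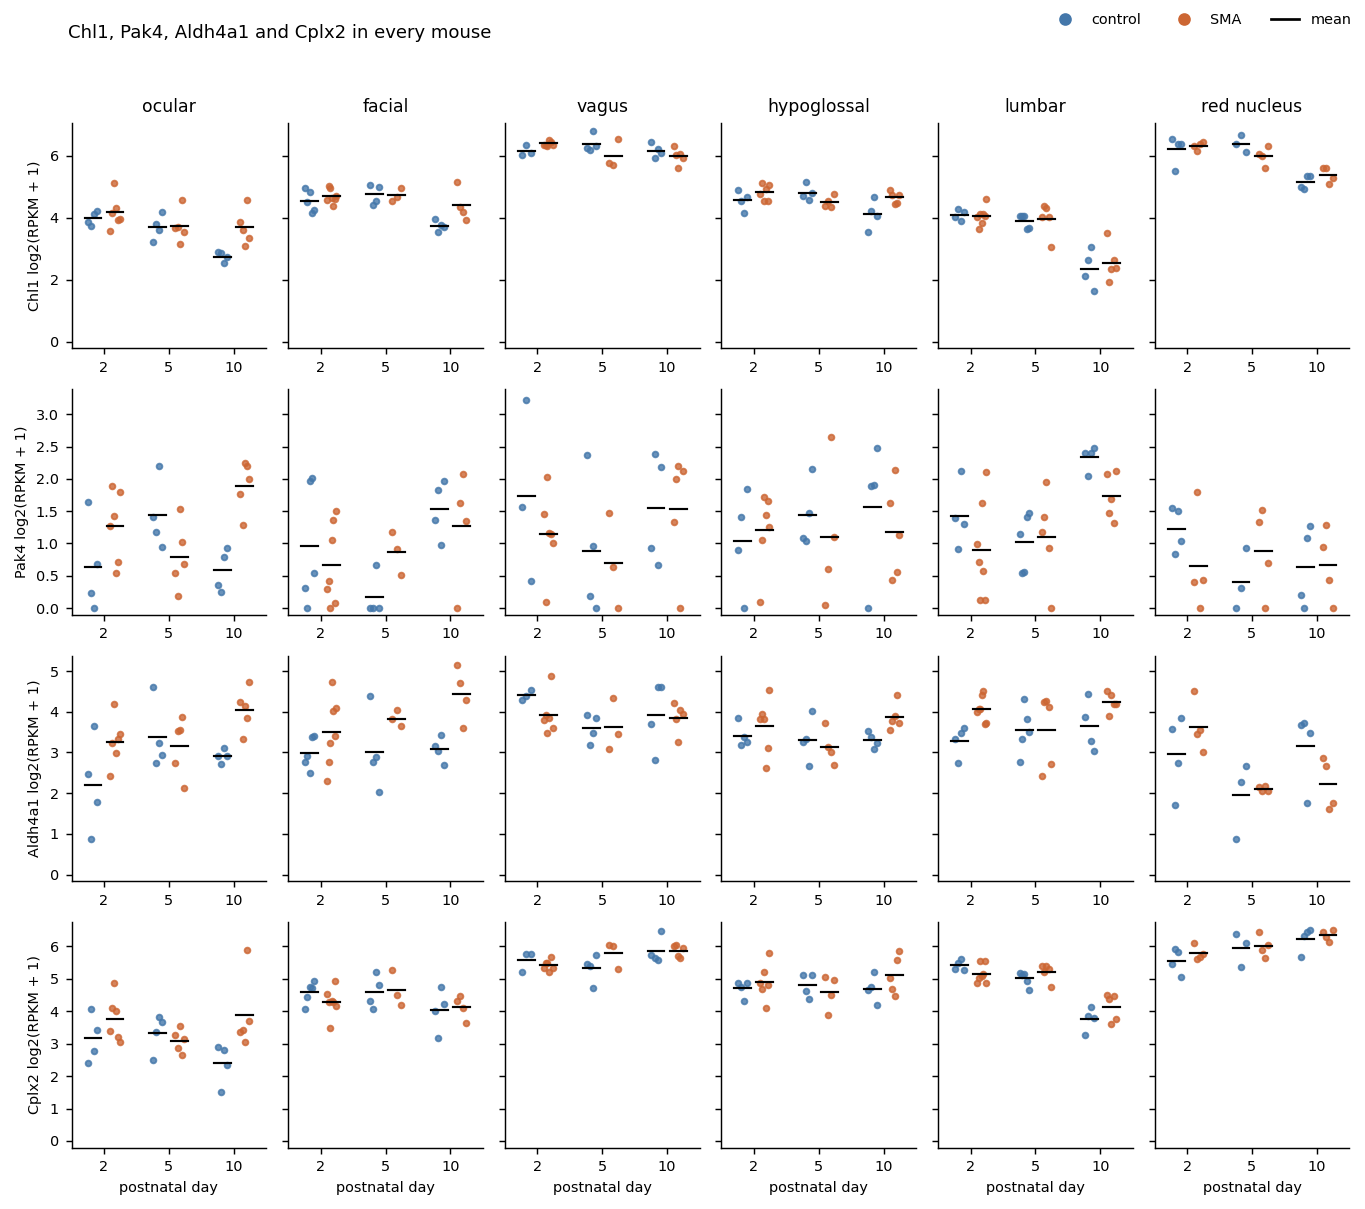
log2(RPKM + 1) of Chl1, Pak4, Aldh4a1 and Cplx2 in every mouse (points) by age for each population, with bars at group means. Chl1 and Cplx2 are higher in vagus and red nucleus than in the other populations at every age, and at day 10 the 4 ocular control points lie below the 5 SMA points for each of the 4 genes.

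Pak4 in day-10 ocular neurons was 2.39, 1.43, 3.73, 3.59 and 2.99 RPKM in SMA mice and 0.282, 0.192, 0.737 and 0.914 RPKM in controls. The groups did not overlap, at 2.83 ± 0.946 (SD, n = 5) against 0.531 ± 0.349 (n = 4), a ratio of means of 5.32, or 4.96 without mouse 250. At day 5 the ocular order was the other way, with 0.136 to 1.89 RPKM in SMA mice and 0.930 to 3.62 in controls, and the ranges overlapped.

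The day-10 ocular controls were low for Pak4 beside the other motor populations. Day-10 controls had 3.11 to 4.60 RPKM in lumbar neurons, 0.970 to 2.93 in facial, 0.589 to 4.22 in vagus and 0 to 4.56 in hypoglossal neurons. The ocular SMA values of 1.43 to 3.73 RPKM thus lay inside the control range of the vagus and hypoglossal populations. In 4 of the 5 other populations the day-10 difference was negative. In lumbar neurons SMA mice had 1.49 to 3.38 RPKM, a limma difference of -0.60 (SE 0.380) with a Benjamini-Hochberg adjusted p of 0.652.

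Aldh4a1 in day-10 ocular neurons was 17.9, 8.997, 16.5, 13.3 and 25.4 RPKM in SMA mice and 6.51, 5.56, 7.68 and 6.54 RPKM in controls. The groups did not overlap, at 16.4 ± 6.07 (SD, n = 5) against 6.57 ± 0.867 (n = 4), a ratio of means of 2.5, or 2.62 without mouse 250. At day 5 the highest ocular value was that of a control, 23.6 RPKM.

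Aldh4a1 separated the genotypes elsewhere too. Facial SMA mice at day 10 had 34.8, 25.0, 11.2 and 18.6 RPKM and facial controls 7.92, 7.26, 9.79 and 5.48 RPKM, a ratio of means of 2.94 and no overlap. The facial limma difference was 1.36 (SE 0.455), with a Benjamini-Hochberg adjusted p of 0.272. Hypoglossal SMA mice at day 10 had 10.7 to 20.2 RPKM against 7.52 to 10.52 in controls, and lumbar SMA mice at day 2 had 11.9 to 21.8 RPKM against 5.70 to 11.1. These were the 3 of 90 non-ocular member comparisons in which all SMA mice were above all controls, where 2.02% of all gene results had that separation, and no comparison had all SMA mice below. In the populations and ages concerned, 3.32% of genes separated so in facial neurons at day 10, 1.86% in hypoglossal neurons at day 10 and 0.354% in lumbar neurons at day 2. The lumbar day-2 difference was 0.78 in limma (SE 0.324, Benjamini-Hochberg adjusted p = 0.792). The red nucleus went the other way at day 10, with 2.07 to 6.25 RPKM in SMA mice and 2.37 to 12.2 in controls (limma -0.93, SE 0.517, Benjamini-Hochberg adjusted p = 0.884).

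Microglial markers were higher in the same facial samples. The summed RPKM of 7 microglial markers was 5.32 to 42.1 in facial SMA mice at day 10 and 3.82 to 9.54 in controls, with all 7 marker means higher in SMA. Their part in the facial differences of Aldh4a1 and Chl1 was not tested. In day-10 ocular samples the microglial sum was 0.711 times that of controls, and the astrocyte sum was 0.911 times, with overlap in both, although 7 of 8 astrocyte marker means were higher in SMA. The sum of 2 oligodendrocyte precursor markers was 2.38 times that of controls, with both higher and with overlap, at 1.84 RPKM against 0.772. The sum of 4 vessel markers was 2.05 to 8.57 RPKM in ocular SMA mice and 0.218 to 3.91 in controls, with all 4 higher. The part of these markers in the ocular differences was not tested.

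Cplx2 in day-10 ocular neurons was 9.15, 9.72, 7.26, 58.6 and 11.8 RPKM in SMA mice and 6.42, 1.87, 5.91 and 4.11 RPKM in controls. All SMA mice were above all controls, but the mean of 19.3 ± 22.0 (SD, n = 5) rested on mouse 250. With it the ratio of means was 4.22 and without it 2.07, at 9.49 ± 1.88 (n = 4) against 4.58 ± 2.06 (n = 4). The 58.6 RPKM of mouse 250 lay within the range of day-10 red nucleus controls, 50.23 to 88.65 RPKM, and below their mean of 75.85. That sample also carried the red nucleus markers given above. Whether red nucleus neurons account for its value was not tested.

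Outside the ocular nuclei the Cplx2 differences at day 10 were all positive, and none passed the threshold. In vagus neurons (0.014 against 0.021) and in the red nucleus (0.107 against 0.134) Cplx2 was below the median difference of all genes. The 2 highest Cplx2 differences were 0.42 in hypoglossal neurons, with 20.9 to 56.98 RPKM in SMA mice and 17.4 to 35.6 in controls, and 0.38 in lumbar neurons, with 11.1 to 21.7 against 8.57 to 16.4. Their limma standard errors were 0.314 and 0.205, and their Benjamini-Hochberg adjusted p-values were 0.864 and 0.548.

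The sum of motor neuron markers was lower in the day-10 ocular SMA samples. For the 4 listed markers Chat, Slc5a7, Isl1 and Prph it was 452 to 875 RPKM in SMA mice and 926 to 1024 in controls. Every SMA mouse was below every control, and 0 of 4 marker means were higher in SMA with mouse 250 included. Slc5a7 separated by itself, at 72.2 to 163.5 RPKM in SMA mice against 171.2 to 227.2 in controls. Chat, Isl1 and Prph overlapped. Prph, which made most of the sum, was 340.4 to 659.8 RPKM against 630.6 to 732.5. Isl1 reached 84.5 RPKM in SMA mice against 68.2 in controls, and its lowest value, 21.1 RPKM, was that of mouse 250. The red nucleus markers Pou4f1 and Slc17a6 summed to 9.07 to 176.9 RPKM in SMA mice and 4.74 to 16.9 in controls. Mouse 250 gave the 176.9 RPKM and also the lowest motor neuron sum. The other SMA mice had at most 16.4 RPKM of Pou4f1 and 21.5 of Slc17a6, against at most 4.19 and 12.7 in controls. In pooled neurons, fewer cells of a type and less RNA per cell cannot be told apart. The part of these marker differences in the members' values was not tested, beyond the values without mouse 250.

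The ocular genotype difference was set against that of each other population at day 10, as the ocular SMA minus control difference less that of the other population. The ocular part of each value is the measurement that chose the genes, and the 5 values of a gene share the same ocular mice. They are therefore given as a description with limma's standard errors and 95% intervals, and no test is drawn from them. Of the 90 values over the 3 ages, 3 had a Benjamini-Hochberg adjusted limma p under 0.05, where 0.0868% of all gene results did, and nothing is read from that count.

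For the secreted factors, the ocular excess was lowest over lumbar neurons. For Lif it was 0.90 (SE 0.275) over lumbar, 1.17 (SE 0.283) over facial, 1.18 (SE 0.275) over hypoglossal, 1.56 (SE 0.283) over red nucleus and 1.58 (SE 0.275) over vagus neurons. Vagus samples had no Lif at all, so the vagus value is the ocular difference itself, and the red nucleus value is nearly so. For Gdf15 the excess was 0.94 over lumbar neurons, with an interval from -0.05 to 1.94, and 1.57 to 2.09 over the other 4 populations. The difference from vagus neurons, 2.09, was 4.81 with a pseudocount of 0.1.

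Chl1 and Aldh4a1 in facial neurons came nearest to their ocular differences. For Aldh4a1 the ocular difference less the facial one was -0.22, with an interval from -1.38 to 0.93, and for Chl1 it was 0.28, with an interval from -0.39 to 0.95. These intervals hold differences in either direction and do not show that the populations responded alike. For Pak4 the excess ran from 1.30 over the red nucleus to 1.91 over lumbar neurons, and for Cplx2 from 1.07 over hypoglossal to 1.48 over vagus neurons. The values of all 6 genes include mouse 250. Without it the ocular difference itself fell from 1.49 to 0.98 for Cplx2 and from 0.95 to 0.73 for Chl1. It went from 1.58 to 1.5 for Lif and from 1.31 to 1.23 for Pak4. For Gdf15 it went from 2.03 to 2.04, and for Aldh4a1 from 1.14 to 1.19.

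**Figure D4:**
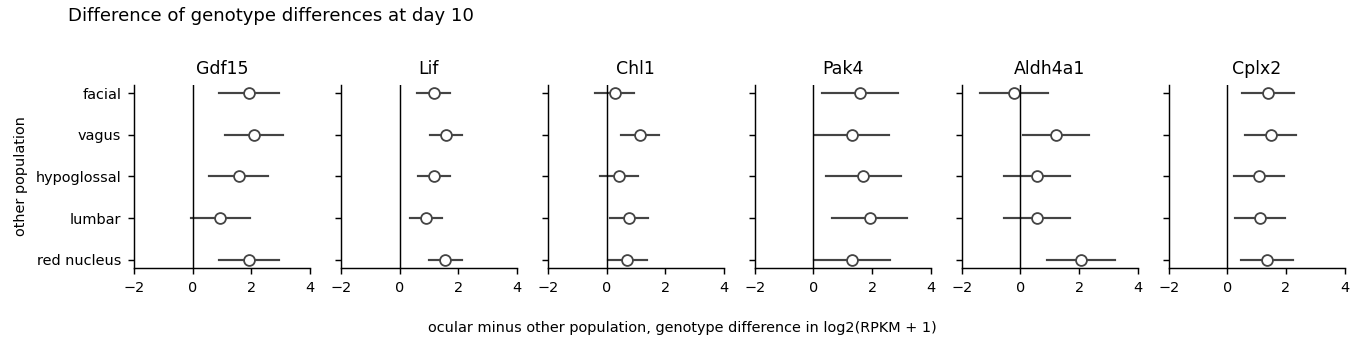
Day-10 genotype difference in ocular neurons less that in each of the 5 other populations, on the log2(RPKM + 1) scale, with 95% intervals from limma, for each gene. All points but Aldh4a1 against facial (-0.22) are above 0, a direction that the choice of the genes by their ocular values favours. The ocular sample of mouse 250 is included.

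Levels in controls, averaged over ages, were lowest in ocular neurons for Cplx2, and for Chl1 in ocular and lumbar neurons, which were close. Cplx2 was 7.70 ± 4.17 RPKM (SD, n = 12) in ocular controls, and 21.6 in facial, 26.2 in hypoglossal, 29.0 in lumbar, 48.9 in vagus and 62.2 in red nucleus controls. Chl1 was 11.1 ± 4.75 RPKM (SD, n = 12) in ocular and 11.8 ± 5.54 (n = 13) in lumbar controls. It was 20.9 in facial, 22.6 in hypoglossal, 63.1 in red nucleus and 76.2 in vagus controls. At day 10 alone, Chl1 averaged 5.73 RPKM in ocular and 4.49 in lumbar controls. Ocular levels are values only, since the members were chosen there. Among the 60 differences between pairs of non-ocular populations, 18 passed the adjusted threshold in limma (17.6% of all gene results did).

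For Chl1, 8 of 10 pairs differed, and the neighbours facial and hypoglossal (limma, Benjamini-Hochberg adjusted p = 0.732) and red nucleus and vagus (0.0995) did not pass. For Cplx2, 6 of 10 pairs differed, which set vagus and red nucleus above facial, hypoglossal and lumbar neurons, with no pair within either set past the threshold. For Aldh4a1, vagus neurons at 15.5 RPKM were above facial neurons at 7.83 and red nucleus neurons at 7.16, and lumbar neurons at 11.0 were above the red nucleus. Pak4 passed in 1 pair, with lumbar neurons at 2.25 RPKM above red nucleus neurons at 0.855. Gdf15 averaged 0.123 to 0.550 RPKM over the 6 control populations and Lif at most 0.103, and no pair passed for either gene.

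**Figure D5:**
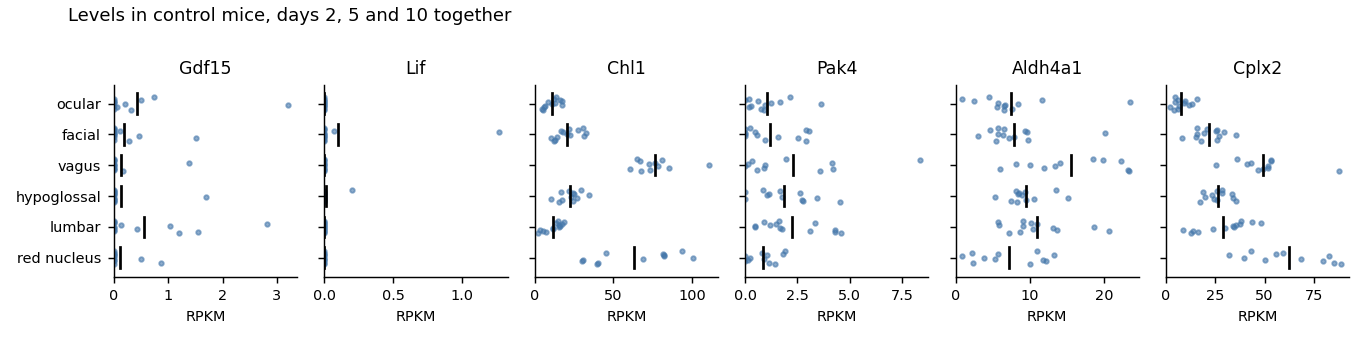
RPKM of each gene in control mice of the 6 populations over all ages, with each mouse as a point and a black line at the mean. Chl1 and Cplx2 span the populations most, with means from 11.1 to 76.2 RPKM and from 7.70 to 62.2 RPKM.

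The receptors, ligands and pathway partners of the 6 genes were described over the same 15 non-ocular comparisons. The 6 lists gave 900 results, of which 0 passed the threshold in limma and 64 had an unadjusted p under 0.05 (7.11%), near the 6.92% of all genes. By list, these were 1 of 24 results for the GDF15 receptor, 8 of 144 for LIF receptors and the IL-6 family, 5.66% of results for the L1 family and its partners and 6.67% for the PAK pathway. They were 15 of 168 for proline and glutamate metabolism and 16 of 180 for complexins and SNARE proteins. The median difference of a list in a population and age ran from -0.42 to 0.41. Prodh, which starts proline breakdown upstream of Aldh4a1, had a lumbar day-10 limma difference of -1.99 with a Benjamini-Hochberg adjusted p of 0.206. Stat3, the transcription factor downstream of LIF, had -0.58 there with a limma Benjamini-Hochberg adjusted p of 0.372. Stat3 went the other way in facial neurons at day 5 (limma 0.93, Benjamini-Hochberg adjusted p = 0.826). Cntfr of the LIF list was also positive in hypoglossal neurons at day 2 (limma 1.6, Benjamini-Hochberg adjusted p = 0.208). Positive differences were 88 of 144 in the LIF list and 74 of 168 in the proline and glutamate list, and nothing is read from these counts.

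In day-10 ocular neurons the partner lists are values only. All 15 genes of the PAK list were higher on average in SMA mice, with a median difference of 0.21 against 0.06 over all genes. In the LIF list 3 of 9 tested genes had a positive difference (median -0.23), and in the proline and glutamate list 2 of 12 (median -0.26). In the complexin and SNARE list 5 of 13 were positive (median -0.08), and in the L1 list 6 of 11 (median 0.02). These values include mouse 250. The share of all genes with a positive difference was not computed, so nothing is read from these counts.

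Genes whose pattern over the 36 group means was most like each member were found by Pearson's r of mean log2(RPKM + 1), a description over groups that share mice and libraries. For Gdf15 the first was Lif (r = 0.816, and 0.637 over the 30 non-ocular groups). For Lif the first were Gm14157 (0.909) and Iapp, which encodes islet amyloid polypeptide (0.898). Among the genes most like Chl1 was Syt5, a synaptotagmin (0.943). Cplx2 was most like Cntn6, a contactin (0.893), and Bsn, the presynaptic scaffold bassoon, came after it (0.876). Pak4 and Aldh4a1 had weaker matches, with Arpp19 at 0.658 and Emd, which encodes emerin, at 0.768. Chl1 and Cplx2 had r = 0.776 with each other.

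All 6 genes are protein coding and placed by GENCODE M21 (GRCm38). Gdf15 lies at chr8:70629393-70632456 on the minus strand, Lif at chr11:4257557-4272514 on the plus strand and Chl1 at chr6:103510586-103750211 on the plus strand. Pak4 lies at chr7:28558819-28598185 on the minus strand, Aldh4a1 at chr4:139622866-139649690 on the plus strand and Cplx2 at chr13:54371349-54383917 on the plus strand. The 6 genes are thus on 6 chromosomes.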

How the data were processed

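Per the labels' protocols, neurons were cut by laser, lysed directly and sequenced after Smart-seq2 amplification and Tn5 tagmentation. The authors deposited 1 table of RPKM for the 168 libraries. The submitters' processing notes name STAR 2.4.1c and the builds mm10 and hg19. The counting software and its use of strand are not given in the sources used here. The labels say that 5 lumbar control libraries at day 5 include reads of an earlier deposit.

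The RPKM of libraries from 1 mouse and population were averaged, giving 160 samples. Genes with at least 1 RPKM in as many samples as the smallest group holds were fitted as log2(RPKM + 1) with limma 3.58.1 (R 4.3.3), 1 fit per population, and in 1 fit of all 36 groups, over 22270 genes, for differences between populations. That fit used the mouse as block, since equal mouse numbers are the same animal (consensus correlation 0.0366). P-values are two-sided and Benjamini-Hochberg adjusted over all genes of a contrast. Fold changes on this scale understate changes of low genes. In the fits per population, Lif failed the filter in every population and Gdf15 in hypoglossal and red nucleus neurons. Outside ocular neurons these were tested by exact permutation over mice instead. Nothing in the labels says that mice of a group come from separate litters.

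Approximate reads and library depth came from equal steps in low RPKM. Depth used 17340 genes with 1 transcript, and 75% of their values under 20 reads lay within 0.02 of a whole read. Steps of Gdf15, Lif and Pak4 were whole reads in 94.4%, 87.5% and 98.5% of values under 20 reads, within 0.05 reads. The counted length of each of these genes was set from its own smallest recurring value. The floor is 3 reads. It covers counting error only, as libraries carry no molecular identifiers.

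Members and lists were chosen with earlier results of these data known. Named genes are the members, genes of 6 partner lists and the 3 genes most correlated with each member. Of the latter, 1 is not reported here. Partners and markers without a row (Nfasn, Slc18a3) were not analysed here. All 6 members matched RefSeq promoter windows. Alternatives were another pseudocount, no filter, quantile normalization, libraries as samples, only the groups compared, no block, no trochlear libraries and leaving out each mouse. Values without the ocular sample of mouse 250 were added after seeing the data. The fits were tested on simulated data.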

Additional observations from a re-analysis of the deposited data

Results flagged for a closer look

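The check covered 139 combinations of a gene and a group of 4 to 7 mice, which share mice and groups. Of these, 5 had a mouse far from the others by Dixon's criterion, where chance alone gives about 1 in 20. Another 53 combinations with at least 50% of the mice at 0 were left untested. Cplx2 in the ocular sample of SMA mouse 250 at day 10 was 58.59 RPKM against 7.27 to 11.8 in the other SMA mice. Cplx2 in the vagus sample of control mouse 254 at day 10 was 87.49 RPKM against 46.6 to 51.7. Among day-10 red nucleus controls, mouse 253 had 2.374 RPKM of Aldh4a1 and the others 10.1 to 12.2, and in the vagus of SMA mouse 209 at day 2 Aldh4a1 was 28.23 RPKM against 10.1 to 14.1. Chl1 in lumbar neurons of SMA mouse 77 at day 5 was 7.28 RPKM against 15.3 to 19.9.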

How the results depend on the processing

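Outside ocular neurons the count of members past the adjusted threshold in limma was 0 under every alternative run, leaving out each mouse included (0 to 0), against 5 at an unadjusted p under 0.05. That unadjusted count ran from 3 (without control mouse 247 or SMA mouse 196) to 8 (without SMA mouse 77). For the ocular difference less that of another population, whose ocular part chose the genes, the count with an adjusted p under 0.05 was 3 and supports nothing. It was 3 with no filter, with no replicate block (that is, without the mouse as block) and without the ocular sample of mouse 250, 2 with a pseudocount of 0.1, and 5 with quantile normalization, with each library as its own sample and without the trochlear libraries. Leaving out a mouse gave 2 to 6, with 6 without SMA mouse 199 and without SMA mouse 249. The age count of 4 was 2 when only the compared groups were fitted and 3 with quantile normalization, and 3 to 4 without a mouse. Chl1 in facial controls lost its call in both (adjusted p = 0.0918 and 0.0753), and Chl1 in the red nucleus when only the compared groups were fitted (0.0571). The count of 18 control-level pairs ran from 17 to 21 without a mouse. With a pseudocount of 0.1 the ocular day-10 differences were 4.45 for Gdf15, 3.87 for Lif and 2.33 for Pak4. Leaving out a mouse gave 1.90 to 2.15 for Gdf15, 1.24 to 1.97 for Lif, 0.73 to 1.11 for Chl1, 1.2 to 1.46 for Pak4, 0.97 to 1.32 for Aldh4a1 and 0.98 to 1.70 for Cplx2. No value reversed, and the cause of these changes was not tested. Depth limits Gdf15, Lif and Pak4 most, since many of their values rest on a few reads.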
